A study of Mus musculus with 8 samples.

Results

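The genes described here encode the nuclear-encoded subunits of the respiratory chain complexes I to IV and of ATP synthase (complex V). They were the protein-coding rows of the deposited tables whose mouse symbol began with Nduf, Uqcr, Cox4 to Cox8 or Atp5, or was Sdha, Sdhb, Sdhc or Sdhd. This gave 94 of 55471 gene identifiers, with 93 distinct symbols because Atp5o is listed under 2 identifiers. The symbol pattern also took in 8 assembly factors of complex I (Ndufaf1 to Ndufaf8), and it left out cytochrome c1 and cytochrome c. A further 13 rows that matched the pattern were pseudogenes or noncoding RNAs and were not members.

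RNA was sequenced from 8 libraries of motor neurons differentiated from HB9::GFP mouse embryonic stem cells (HBG3), in which the motor neuron promoter HB9 drives a green fluorescent protein, 3 days after plating. All groups came from this same line and carried no other treatment. Input was RNA before capture. The LacZ pull-down used probes against a bacterial mRNA that mouse cells lack, and the ODD and EVEN pull-downs used 2 sets of biotinylated antisense probes of 20 nt against Lhx1os, a long noncoding RNA. Each group had 1 library from each of 2 experiments, called experiment 1 and experiment 2 here after the replicate number. The labels do not say whether the pull-downs of an experiment came from separate cultures, so p-values measure the spread between these libraries only. No step that sorts the GFP-positive cells is given in the labels.

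Oxidative phosphorylation passes electrons from NADH through complex I, or from succinate through complex II, to ubiquinone, then through complex III and cytochrome c to complex IV, where oxygen is reduced. Protons pumped by complexes I, III and IV drive ATP synthesis by complex V. Complexes I, III, IV and V join subunits made in the nucleus with subunits encoded by mitochondrial DNA, while complex II is wholly nuclear. Neurons depend heavily on this pathway for ATP. The nuclear factors NRF1, the ETS protein GABP and YY1 are known activators of many of these genes.

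Total counts ran from 7632775 in LacZ experiment 1 to 24628435 in Input experiment 1, and protein-coding genes took 93.5% to 98.2% of them. The target was recovered in the ODD and EVEN libraries. Levels are given as CPM, scaled by TMM library size, with experiment 1 first in each pair. Lhx1os read 2.27 and 2.97 CPM in Input, and the LacZ libraries held 2.06 and 2.44. The ODD libraries reached 180 and 35.7 CPM, and the EVEN libraries 149.5 and 25.4. The probe captures of experiment 2 were thus lower than those of experiment 1. All 8 motor neuron markers had counts in every library. Their summed level was 221 CPM in Input experiment 1 and 667 CPM in Input experiment 2. Glial markers went the other way, with 922 and 267 CPM in the same libraries, although Gfap and Aqp4 never passed 1.03 CPM. Neural progenitor markers summed to 1637 and 1189 CPM there, above the motor neuron markers in both. Pan-neuronal markers summed to 2227 and 2702 CPM, and mesenchymal markers to 214 and 106 CPM. Summed muscle markers never passed 2 CPM. The 4 pluripotency markers summed to 0.453 and 0.244 CPM in Input. Of these, 2 had counts in both Input libraries, and Pou5f1 had no count in any library.

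The promoters of these genes were searched for letters that these activators are known to bind. RefSeq promoters on GRCm38.p6, from 250 bases before to 50 bases after a start, were found for 74 member symbols. The words searched, on both strands, were GCGCATGCG for NRF1, CCGGAAGT for ETS proteins and GCCATCTTG for YY1, and a match is only a description of the letters. The NRF1 word was present in 13.5% of member genes (10 of 74), 4% of other coding genes tested and 1.95% of all genes with a promoter. The YY1 word was in 8.11% of member genes, 2.47% of other coding genes tested and 1.42% of all. The ETS word was in 6.76% of member genes, 8.79% of other coding genes tested and 4.31% of all. Any of the 3 words was present in 27% of member genes and in 14.3% of other coding genes tested. The stretches below are examples. Uqcr11 was the member with both an NRF1 and an ETS word. Cox6a1 holds the NRF1 word in both orientations at 1 place, as do Atp5g2, Atp5k, Ndufa11, Ndufaf4, Ndufaf5 and Uqcrc1. Uqcrh holds the ETS word close to its start, and in Cox8a and Ndufs3 that word lies closer still. Capitals mark the words, and each stretch is written 5′ to 3′ along the gene.
Uqcr11 (chr10:80406812-80406912, minus strand, GRCm38.p6): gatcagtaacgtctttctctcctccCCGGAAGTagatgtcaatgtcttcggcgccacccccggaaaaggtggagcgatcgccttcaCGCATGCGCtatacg
Cox6a1 (chr5:115349086-115349145, minus strand, GRCm38.p6): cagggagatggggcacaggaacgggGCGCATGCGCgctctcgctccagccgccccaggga
Uqcrh (chr4:116075061-116075106, minus strand, GRCm38.p6): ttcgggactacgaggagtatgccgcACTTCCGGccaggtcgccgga
In Uqcr11 the ETS word began 66 bases and the NRF1 word 5 bases before the start. In Cox6a1 the overlapping NRF1 words began 162 and 161 bases before the start, and in Uqcrh the ETS word began 11 bases before it.

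Of the 94 genes, 87 passed edgeR's filter on low counts and were tested. The 7 that did not pass were Cox4i2, Cox6a2, Cox7b2, Cox8b, Cox8c, Ndufa4l2 and the second Atp5o record. In Input, the tested genes were mostly abundant. Levels are given as FPKM scaled by TMM library size, per length of the merged exons, as the mean ± SD over the 2 Input libraries. The median over the tested genes of each class was 73 FPKM for the F1 catalytic part of complex V, 65.2 for complex IV, 59.2 for complex III, 41.6 for complex II, 33.6 for the catalytic core of complex I, 33.4 for its supernumerary subunits, 23.9 for the Fo and stalk part of complex V and 7.08 for the assembly factors of complex I. The median over all coding genes tested was 7.45 FPKM. All classes except the assembly factors and Atp5s, at 4.2 FPKM, lay above that level.

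**Figure D1:**
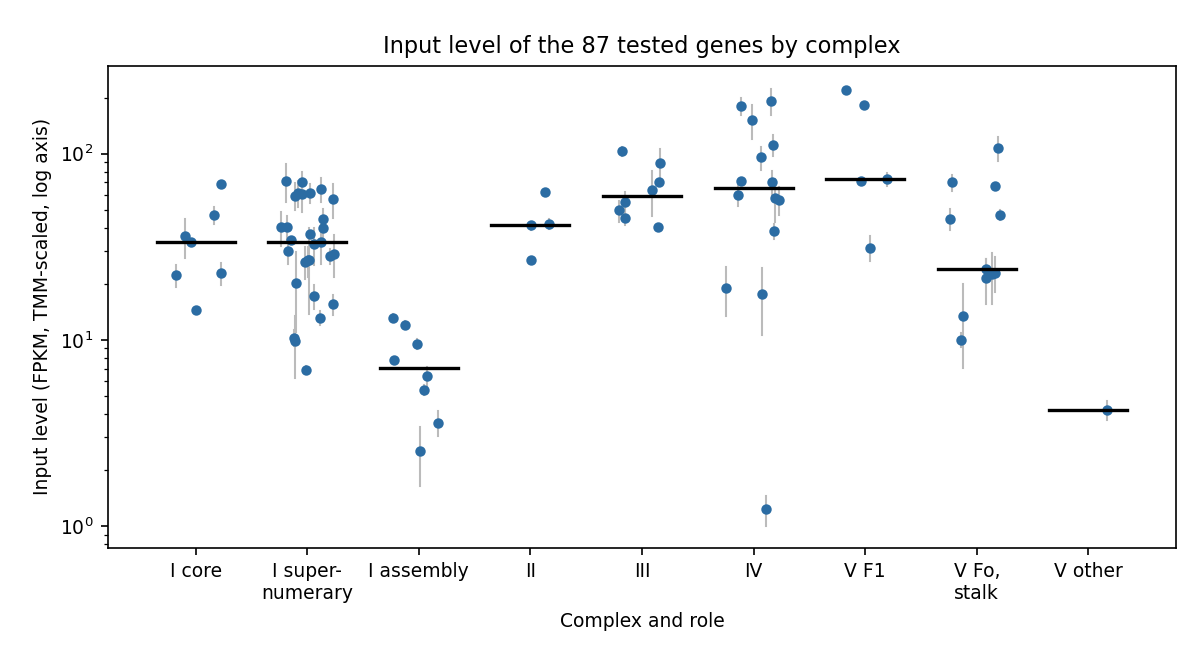
Input level of each of the 87 tested genes (points, mean of 2 Input libraries; grey bars span the 2 libraries) by complex and role on a log axis; black lines are class medians. The F1 part of complex V has the highest median at 73 FPKM and the complex I assembly factors a median of 7.08 FPKM.

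The length used matters for this order. Per kilobase of the longest coding transcript, the Fo and stalk genes rose from 23.9 to a median of 104, above complex III at 102 and below complex IV at 115. Atp5l, subunit g of ATP synthase, has merged exons of 6443 bases and a longest coding transcript of 544 bases, and it read 10 on the first scale and 118 on the second.

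Atp5a1 and Atp5b, the alpha and beta subunits that form the catalytic head of ATP synthase, were among the most abundant members, with 220 ± 7.88 and 183 ± 0.761 FPKM (SD, n = 2). Within F1, Atp5e, the epsilon subunit of the central stalk, was lowest at 31.2 ± 6.72 FPKM. In the Fo and stalk part, Atp5h, subunit d, read 107 ± 22.5 FPKM and Atp5o, the oligomycin sensitivity-conferring protein, 70 ± 9.5. In complex IV, Cox8a and Cox6b1, small subunits of cytochrome c oxidase, led with 191 ± 41.7 and 180 ± 27.8 FPKM. The ranges of both over the 2 libraries included that of Atp5b, so their order against Atp5b is not resolved.

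In complex III, the small subunits Uqcr10 and Uqcr11 read 103 ± 8.07 and 88.5 ± 23.9 FPKM, and Uqcrc1, a core protein, was lowest with 40.4 ± 0.636. In complex I, Ndufv2, an iron-sulphur subunit of the NADH-oxidising module, was at 47 ± 7.05 FPKM. Ndufs1, the large iron-sulphur subunit of that module, was the lowest core gene with 14.4 ± 0.515 FPKM. Among supernumerary subunits, Ndufc2 and Ndufa1 were highest with 71.4 ± 23.6 and 70.6 ± 12.6 FPKM, and Ndufb2 was lowest with 6.88 ± 0.47. Of the assembly factors, Ndufaf1 had 13.1 ± 0.847, Ndufaf8 12.1 ± 0.857 and Ndufaf2 2.52 ± 1.24 FPKM.

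Complex II also oxidises succinate in the citric acid cycle. Sdhd, a membrane anchor, read 62.1 ± 0.693 FPKM, Sdha, the flavoprotein, 42 ± 3.78, Sdhb, the iron-sulphur subunit, 41.1 ± 2.89, and Sdhc, the other anchor, 26.9 ± 0.456. The replicate ranges of Sdha and Sdhb overlapped and those of the other neighbours did not.

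Several subunits have tissue-specific isoforms, and the ubiquitous form was the one detected at a high level. Cox4i1 read 112 ± 20.8 FPKM while Cox4i2, the lung isoform, had 1 count in the 2 Input libraries together. Cox6a1 read 151 ± 44.6 FPKM, while Cox6a2, the heart and muscle form, had no count in any library. Cox7a2 and Cox7a2l, a supercomplex assembly factor, read 70.1 ± 14.3 and 70.9 ± 3.55 FPKM against 1.23 ± 0.322 for the muscle form Cox7a1. Cox8a stood against Cox8b and Cox8c without a count, and Cox7b at 60.2 ± 11.6 FPKM against Cox7b2 without an Input count. A count of 0 allows a level of up to 0.124 CPM in Input experiment 1 and 0.146 CPM in Input experiment 2, for counting error only. Ndufa4, now assigned to complex IV, read 56.1 ± 13.6 FPKM and its paralogue Ndufa4l2 0.164 ± 0.0194. The testis isoform Cox6b2 was an exception in that it was measured at 19.1 ± 7.89 FPKM beside 180 FPKM for Cox6b1. The 3 genes for subunit c were all present, with 23.9 ± 4.59 FPKM for Atp5g1, 46.8 ± 3.95 for Atp5g2 and 66.7 ± 3.78 for Atp5g3.

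Each pull-down was compared with Input, which asks what RNAs a probe set enriched. With edgeR's quasi-likelihood test over all 8 libraries, no member passed an adjusted p of 0.05 in either direction in LacZ, where 7.41% of the 16524 genes tested did, in ODD, where 6.84% did, or in EVEN, where 5.66% did. At an unadjusted p under 0.05 the counts were 1, 5 and 4 of 87 members, or 1.15%, 5.75% and 4.6%, beside 18.9%, 18.3% and 18.8% of all genes. All members are coding genes, and in a fit on coding genes only 0 of 13455 genes passed in each comparison. There the unadjusted shares were 2.3%, 5.75% and 4.6% of members beside 9.33%, 10.1% and 11.5% of coding genes. DESeq2 called Atp5e lower in each of the 3 comparisons (adjusted p = 0.0173, 0.0172 and 0.00761) and Ndufs1 higher in ODD (adjusted p = 0.0163). The median log2 difference of the members was -0.15 in LacZ, -0.13 in ODD and -0.10 in EVEN, beside -0.05, -0.03 and -0.0019 over all genes. The sign of these member medians depended on single libraries. Without experiment 1 of the pull-down in question they were -0.46, -0.40 and -0.27, and without its experiment 2 they were 0.09, 0.10 and 0.10. Without Input experiment 2 they were 0.03, 0.07 and 0.08, and without Input experiment 1 -0.32, -0.28 and -0.19. These 3 comparisons share the Input libraries.

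Atp5e fell in the pull-downs. It lies on chromosome 2 from 174461072 to 174464105 on the minus strand of GRCm38. It stood at 46.4 and 63.1 CPM in Input, against 29.7 and 23.2 (LacZ), 31.1 and 22.2 (ODD) and 29.4 and 21 (EVEN). Both Input libraries were above all 6 pull-downs, and the LacZ control was as low as the 2 Lhx1os probe sets. With the 6 pull-downs together against Input, the log2 difference was -1.07 (SE 0.213, adjusted p = 0.0233 by edgeR), and the level was 47.7% of Input. It was the 1 member of 87 called lower, where 1.79% of all genes were, and no member was called higher, where 8.37% were. With edgeR 6 of 87 members (6.9%) had an unadjusted p under 0.05, beside 24.4% of all genes. In the fit on coding genes only the shares were 5.75% of members and 15.1% of coding genes. DESeq2 also called 1 member lower and none higher. The call was lost when either Input library or LacZ experiment 2 was left out (adjusted p = 0.08, 0.157 and 0.0591) and when only coding genes entered the fit (adjusted p = 0.146), where 0 of 13455 genes passed.

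**Figure D2:**
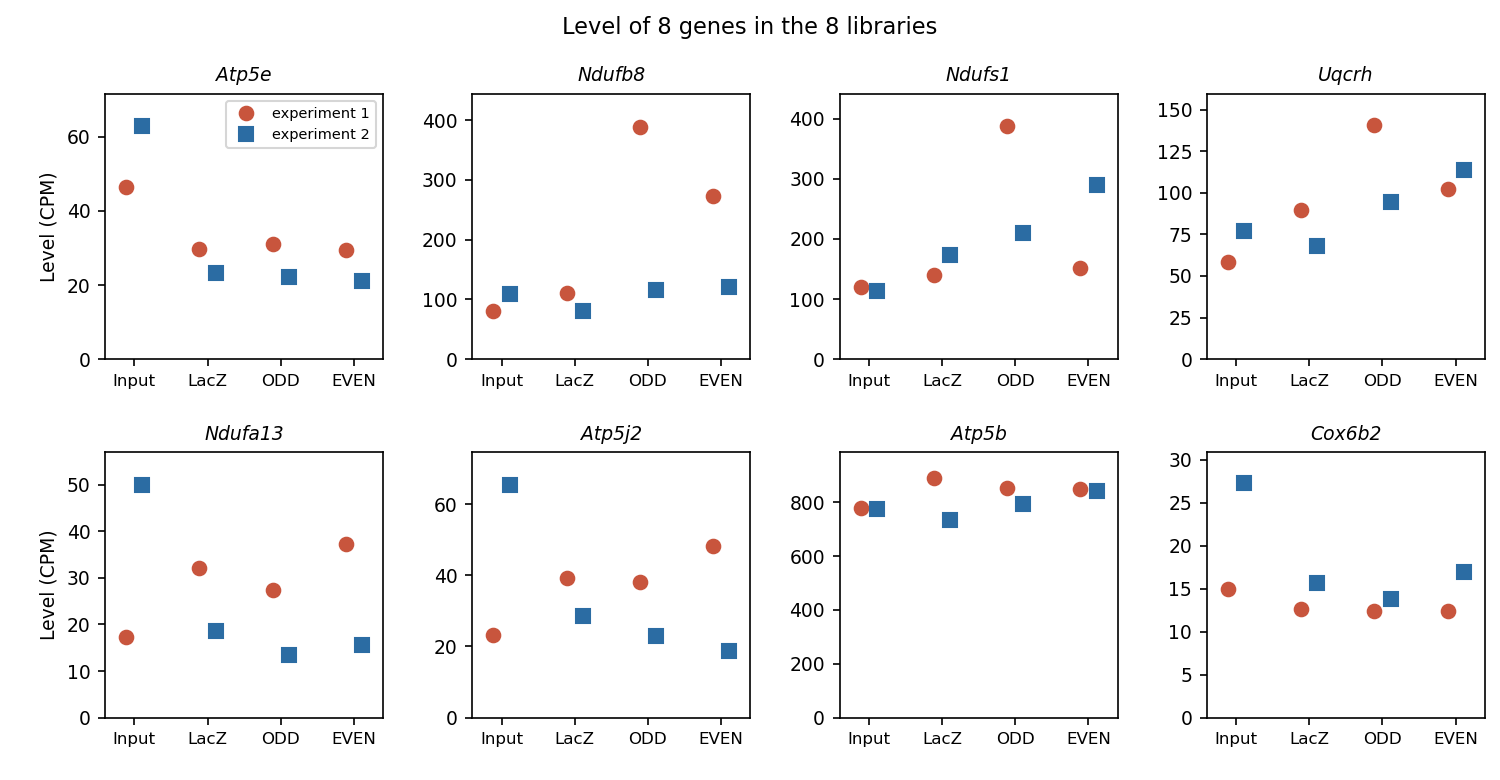
Level in CPM (linear axis from 0) of 8 genes in the 2 libraries of each group, circles for experiment 1 and squares for experiment 2. Atp5e is at 46.4 and 63.1 CPM in Input and at 31.1 CPM or below in every pull-down, and Ndufb8 reaches 389 and 274 CPM in ODD and EVEN of experiment 1.

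Libraries of the same experiment deviated together, so the experiment was also entered as a block. With the block, 1 member was called in LacZ, where 19.7% of all genes were called, 3 in ODD (19.2%) and 1 in EVEN (19.3%). Atp5e was lower in all 3 (adjusted p = 0.0183, 0.0193 and 0.0157). In ODD, Ndufs1 and Ndufaf7, a methyltransferase that acts in complex I assembly, were higher (adjusted p = 0.0379 and 0.0306). For all pull-downs together the block gave 1 member higher, where 16% of genes were, and 4 lower, where 13.1% were. Ndufaf7 was higher by 0.43 on the log2 scale (adjusted p = 0.0214). Atp5e (-1.09, adjusted p = 0.00408), Atp5g1 (-0.87, 0.0238), Atp5mpl, a small membrane subunit of ATP synthase (-0.85, 0.0306), and Cox6b2 (-0.56, 0.0291) were lower. The member shares, 1.15% and 4.6%, were below those of all genes.

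By complex, the lowest and highest differences between all pull-downs and Input are given with their errors. In the core of complex I they ran from -0.47 (SE 0.272) for Ndufs7, an iron-sulphur subunit, to 0.90 (SE 0.326) for Ndufs1. In the supernumerary subunits they ran from -0.56 (SE 0.276) for Ndufb4 to 0.83 (SE 0.511) for Ndufb8, both of the membrane arm, and in the assembly factors from -0.18 (SE 0.256) for Ndufaf3 to 0.43 (SE 0.135) for Ndufaf7. Complex II ran from -0.26 (SE 0.169) for Sdhd to 0.17 (SE 0.218) for Sdhb. Complex III ran from -0.77 (SE 0.439) for Uqcr11 to 0.56 (SE 0.215) for Uqcrh, the hinge protein next to cytochrome c1. In complex IV the lowest was Cox6a1 at -0.75 (SE 0.412) and the highest Cox7b at 0.17 (SE 0.157). In complex V, Atp5b was highest of F1 at 0.09 (SE 0.139), and Fo and stalk genes ran from -0.82 (SE 0.265) for Atp5mpl to 0.61 (SE 0.295) for Atp5h. These values are from the fit without the block, in which none of the 87 apart from Atp5e passed.

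The direct comparison with the LacZ control asked for recovery particular to the Lhx1os probes. No member passed in ODD against LacZ, in EVEN against LacZ or in their mean against LacZ, and the share of all genes that passed was 0% in each. At an unadjusted p under 0.05 the member counts were 1, 0 and 0 of 87, beside 170, 283 and 218 of all 16524 genes. DESeq2 called no member in any of the 3 comparisons. Ndufb8, Ndufs1 and Uqcrh had the 3 smallest p-values in ODD and in the mean against LacZ. In EVEN against LacZ, Ndufa9, a supernumerary subunit of complex I, took the place of Ndufs1 (difference 0.37, SE 0.229).

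Ndufb8 (chromosome 19, 44548572 to 44555440, minus strand) stood at 79.9 and 109 CPM in Input, against 111 and 80.9 (LacZ), 389 and 115 (ODD) and 274 and 120 (EVEN). In experiment 1 the ODD level was 3.5 times and the EVEN level 2.47 times that of LacZ, and in experiment 2 the ratios were 1.42 and 1.48. Both probe sets were therefore above LacZ in both experiments, but in experiment 2 they lay close to Input. The log2 difference of ODD from LacZ was 1.39 (SE 0.607, adjusted p = 1 by edgeR), and it was 0.26 without ODD experiment 1. Without the filter on low counts, the setting in which edgeR shares the spread most strongly among genes, it passed with an adjusted p of 0.00308.

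Ndufs1 (chromosome 1, 63143596 to 63176833, minus strand) stood at 120 and 114 CPM in Input, against 139 and 173 (LacZ), 388 and 209 (ODD) and 152 and 290 (EVEN). Its highest values came from different experiments in the 2 probe sets, and LacZ was already above Input. The difference of ODD from LacZ was 0.93 (SE 0.382, adjusted p = 1) and fell to 0.42 without ODD experiment 1. Uqcrh (chromosome 4, 116066965 to 116075071, minus strand) stood at 58.7 and 77.3 CPM in Input, against 89.6 and 68.3 (LacZ), 141 and 94.7 (ODD) and 102 and 114 (EVEN). Each ODD and EVEN library was above the LacZ library of its experiment, by 1.14 to 1.66 times. The difference of their mean from LacZ was 0.52 (SE 0.227, adjusted p = 1). Ndufv3, an accessory subunit of the NADH-oxidising module, read 220 CPM in ODD experiment 1 and between 51.4 and 106 in the other 7 libraries.

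Letters shared with Lhx1os were counted because antisense probes could also bind other transcripts that carry the same run. The longest exact run that any annotated transcript of a gene shared with Lhx1os on the same strand had a median of 11 bases over the 87 members and 11 over 16507 genes tested. It was 9 bases in Ndufb8, 10 in Uqcrh and 15 in Ndufs1, and 99.3%, 93.2% and 9.76% of genes tested had a run as long. The longest perfectly complementary run had a median of 10 bases in members and 11 over all genes. It reached 20 bases in 2 members, Atp5l and Ndufaf7, or 2.3% of members, and 2.55% of all genes had a run as long. Atp5g1 held the longest same-strand run of any member, as long as a probe. The run is shown with its place in the untranslated part of Atp5g1 and in Lhx1os, and all its letters match.
Shared by Atp5g1 (chr11:96072248-96072267, minus strand) and Lhx1os (chr11:84535137-84535156, plus strand), GRCm38: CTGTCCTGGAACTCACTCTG
Atp5g1 stood at 101 and 133 CPM in Input, against 87.5 and 52.6 (LacZ), 84.1 and 51.1 (ODD) and 86.3 and 48.4 (EVEN). All pull-downs were below both Input libraries, and neither Lhx1os probe set was above LacZ in either experiment.

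The largest pattern in these genes was between the experiments. The summed level of all members was 6805 and 8072 CPM in Input, against 8236 and 5842 (LacZ), 8673 and 6386 (ODD) and 8176 and 6887 (EVEN). In experiment 1 all 3 pull-downs were above Input and in experiment 2 all 3 were below it. The median log2 ratio of a member to the Input of its own experiment, on the scale of CPM + 0.5, was 0.27 in LacZ, 0.27 in ODD and 0.29 in EVEN of experiment 1. In experiment 2 it was -0.62, -0.45 and -0.43. The same medians over all genes tested lay between -0.06 and 0.01. Over the 557 other coding genes tested with a coding transcript under 1000 bases, they were 0.34, 0.31 and 0.32 in experiment 1. In experiment 2 they were -0.62, -0.56 and -0.51, so the change of sign was not particular to the members. The LacZ control, which has no target in these cells, showed the same change of sign as the Lhx1os probe sets.

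**Figure D3:**
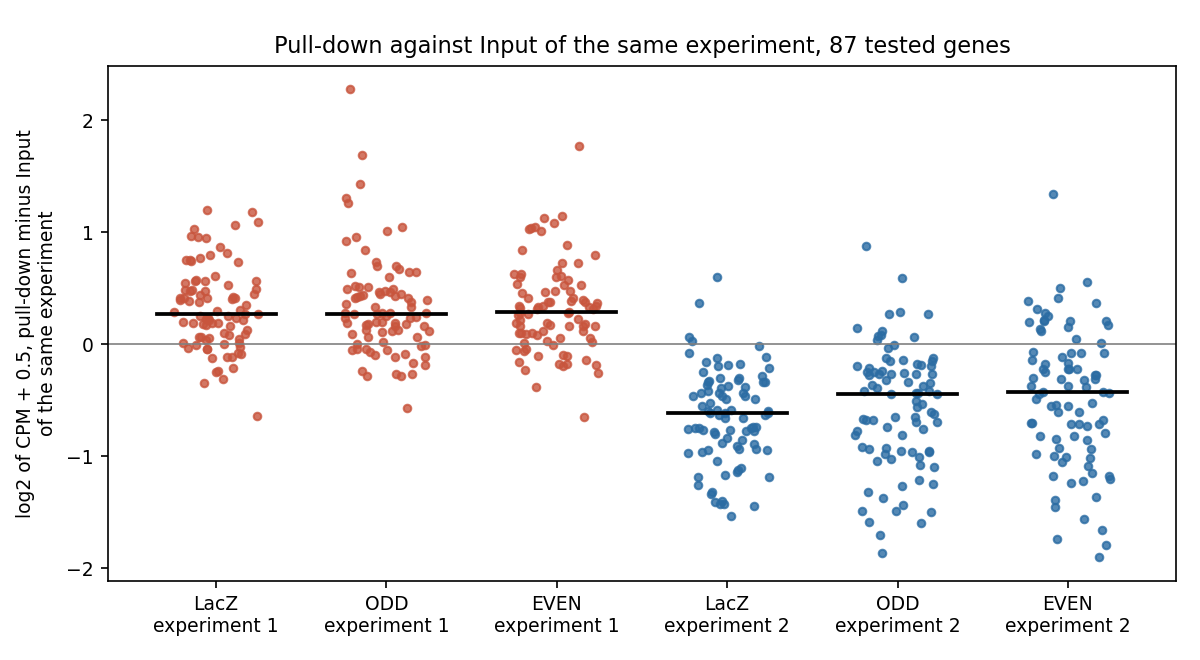
Log2 ratio of each of the 87 tested genes (points) to the Input library of the same experiment, by pull-down library; black lines are medians. Medians are 0.27, 0.27 and 0.29 in the 3 pull-downs of experiment 1 and -0.62, -0.45 and -0.43 in those of experiment 2.

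The summed levels of complexes I, III and IV and of the Fo and stalk part of complex V changed sign in this way in all 6 pull-downs, and those of complex II and F1 did not. Within complex I the 7 core genes were an exception, with EVEN experiment 2 at 731 CPM above Input at 626. Complex I with its assembly factors summed to 1979 and 2518 CPM in Input, against 2491 and 1714 (LacZ), 3061 and 1929 (ODD) and 2612 and 2161 (EVEN). Complex IV summed to 1021 and 1403 CPM in Input, against 1279 and 836 (LacZ), 1210 and 877 (ODD) and 1241 and 896 (EVEN). The Fo and stalk genes summed to 894 and 1178 CPM in Input, against 1371 and 796 (LacZ), 1294 and 872 (ODD) and 1310.5 and 948 (EVEN). In each of these 3 the 2 experiments did not overlap among the pull-downs. Complex II stayed between 346 and 437 CPM and the F1 genes between 1609 and 1869 CPM in all 8 libraries.

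**Figure D4:**
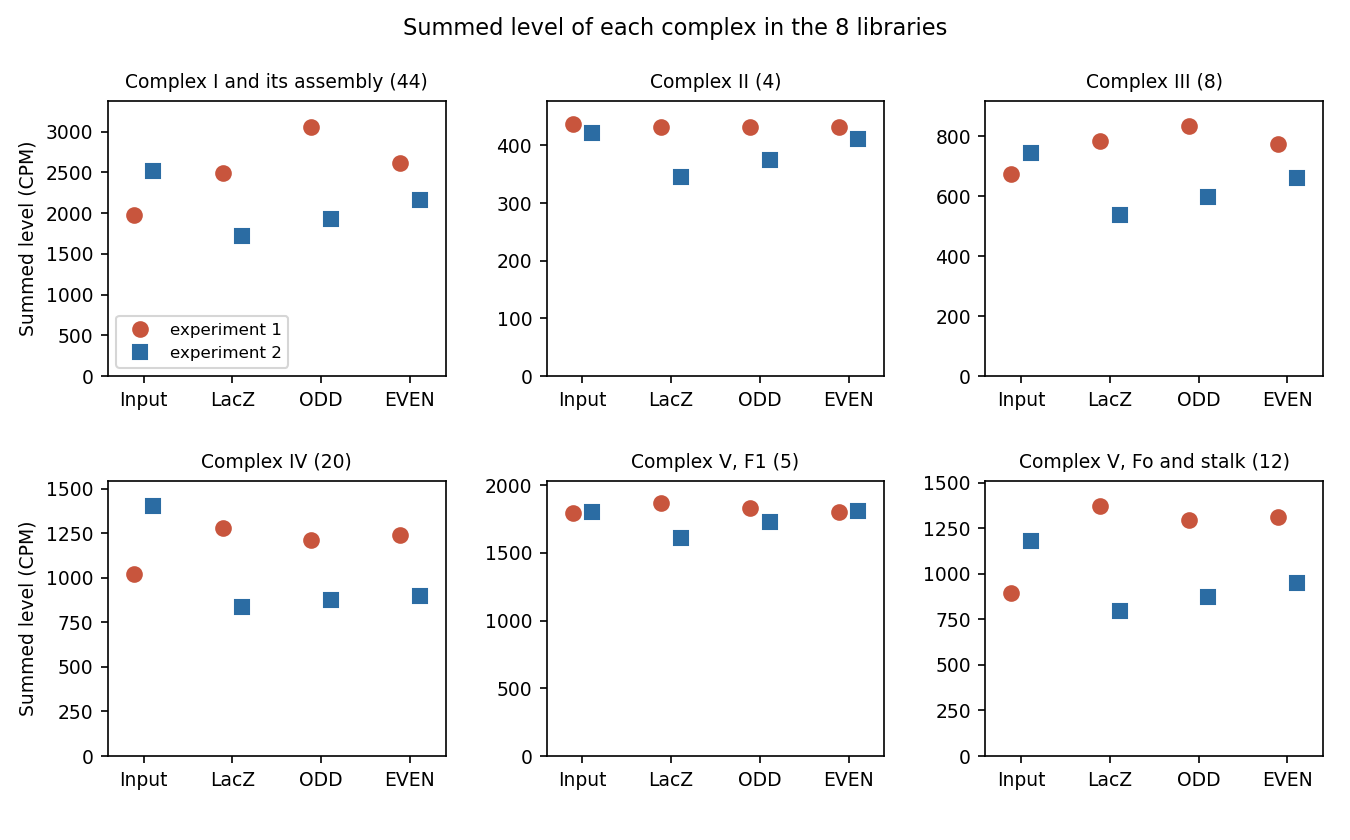
Summed level in CPM (linear axis from 0) of each complex in the 8 libraries, circles for experiment 1 and squares for experiment 2, with the number of genes in brackets. For complex IV the pull-downs of experiment 1 are at 1210 to 1279 CPM, above Input at 1021, and those of experiment 2 at 836 to 896 CPM, below Input at 1403.

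A fit with the experiment beside the group, the form planned for this question, compared experiment 2 with experiment 1 over all 8 libraries. It called 1 member higher, where 15% of all genes were, and 2 lower, where 12.4% were, and the member median was -0.29. Cox6b2 (chromosome 7, 4751792 to 4753094, minus strand) was higher by 0.46 (SE 0.14, adjusted p = 0.0452). Atp5s, coupling factor B, and Atp5d, the delta subunit of F1, were lower by -0.59 (SE 0.143, adjusted p = 0.0211) and -0.54 (adjusted p = 0.0423). Atp5d is named here although its Input libraries went the other way, and that choice was made after its values were seen. Leaving out any library other than Input removed all 3 calls. Without either Input library, where the remaining Input library no longer bears on the experiment, 60 members were lower, beside 3427 of 17136 genes without Input experiment 1 and 3439 of 17089 without Input experiment 2.

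That fit assumes the same experiment difference in Input and pull-downs, which the summed levels did not show. A pair of comparisons was therefore added after the data were seen. In the first, over the 6 pull-downs only, 62 of 87 members (71.3%) were lower in experiment 2, where 21.6% of all genes were, and none was higher, where 19% were. DESeq2 called 55 lower and none higher, beside 2248 lower and 2231 higher of 16524 genes. With edgeR, 324 of the 557 other coding genes tested with a coding transcript under 1000 bases (58.2%) were also lower, beside 37 of the 47 members of that length (78.7%). The member median was -0.53. The second comparison was the change over Input in experiment 2 minus that in experiment 1. It called 47 of 87 members (54%) lower, where 4.75% of all genes were, and none higher, where 2.11% were. DESeq2 called 53 lower and none higher, beside 702 lower and 638 higher of all genes. The member median with edgeR was -0.89 beside -0.05 over all genes. This comparison was added because the summed levels had shown the pattern, so its counts describe these libraries and are no independent evidence of it. It has 1 Input library per experiment, so any deviation of 1 Input library enters the change of every gene while the p-values carry no spread between Input libraries.

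By class, 19 of 29 supernumerary and 3 of 7 core subunits of complex I, 1 of 8 assembly factors, 1 of 4 of complex II, 3 of 8 of complex III, 9 of 14 tested of complex IV, 2 of 5 of F1 and 9 of 11 tested of Fo and stalk were lower. Class medians ran from -1.15 in complex IV, -1.12 in Fo and stalk and -1.06 in the supernumerary subunits to -0.46 in F1 and -0.31 in complex II. Neighbouring classes were not tested against each other. Atp5a1 (0.15), Atp5b (-0.12), Sdha (0.29), Ndufv1, which binds NADH and flavin (0.04), and Uqcrc1 (-0.12) were among those that did not pass.

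The largest change belonged to Ndufa13, a membrane-arm subunit of complex I (chromosome 8, 69894180 to 69902558, minus strand). It stood at 17.3 and 50 CPM in Input, against 32.1 and 18.6 (LacZ), 27.4 and 13.4 (ODD) and 37.3 and 15.5 (EVEN). All pull-downs of experiment 1 were above their Input and all of experiment 2 below theirs, and the difference was -2.55 (SE 0.284, adjusted p = 0.00273 by edgeR). Atp5j2, subunit f of ATP synthase (chromosome 5, 145183698 to 145192062, minus strand), stood at 23.3 and 65.5 CPM in Input, against 39.3 and 28.5 (LacZ), 38.1 and 22.9 (ODD) and 48.2 and 18.6 (EVEN), and its difference was -2.34 (SE 0.305). In both genes the Input library of experiment 2 was the highest of the 8.

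The other 8 of the 10 largest were Ndufa5 (-1.93), a peripheral-arm subunit, Ndufaf2 (-1.74), a late assembly factor, Uqcr11 (-1.68), Cox6a1 (-1.65), Ndufa1 (-1.65), Cox5b (-1.65), Ndufb7 (-1.62) and Ndufa3 (-1.48), with adjusted p from 0.000878 to 0.0205. In the pull-downs alone, the 10 called members with the largest difference were Ndufa1 (-1.31), Ndufb8 (-1.16), Ndufv3 (-1.15), Uqcr11 (-1.15), Uqcrq (-1.10), Cox6a1 (-1.06), Ndufa13 (-1.05), Ndufa7 (-1.03), Ndufa3 (-0.96) and Atp5o (-0.93). For Ndufa1, with a transcript of 419 bases, the levels were 28.2, 29.5 and 32.2 CPM in LacZ, ODD and EVEN of experiment 1 and 11.9, 10.8 and 14.2 in experiment 2, without overlap.

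Transcript length moved with this difference. The longest coding transcript had a median of 918 bases over the 87 members and 3312 bases over the 13368 other coding genes tested. Among 16 members under 600 bases the median change between experiments was -1.36, and among 102 other coding genes of that length it was -1.35. From 600 to under 1000 bases the medians were -1.07 over 31 members and -0.90 over 455 others, from 1000 to under 1500 bases -0.82 over 17 and -0.53 over 1036, and from 1500 to under 2500 bases -0.42 over 14 and -0.20 over 2742. At 2500 bases or more they were -0.35 over 9 members and 0.11 over 9012 others. Across the 87 members the change correlated with log10 transcript length with Pearson's r = 0.49 and Spearman's rho = 0.52, given as a description since these genes share the same 8 libraries.

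**Figure D5:**
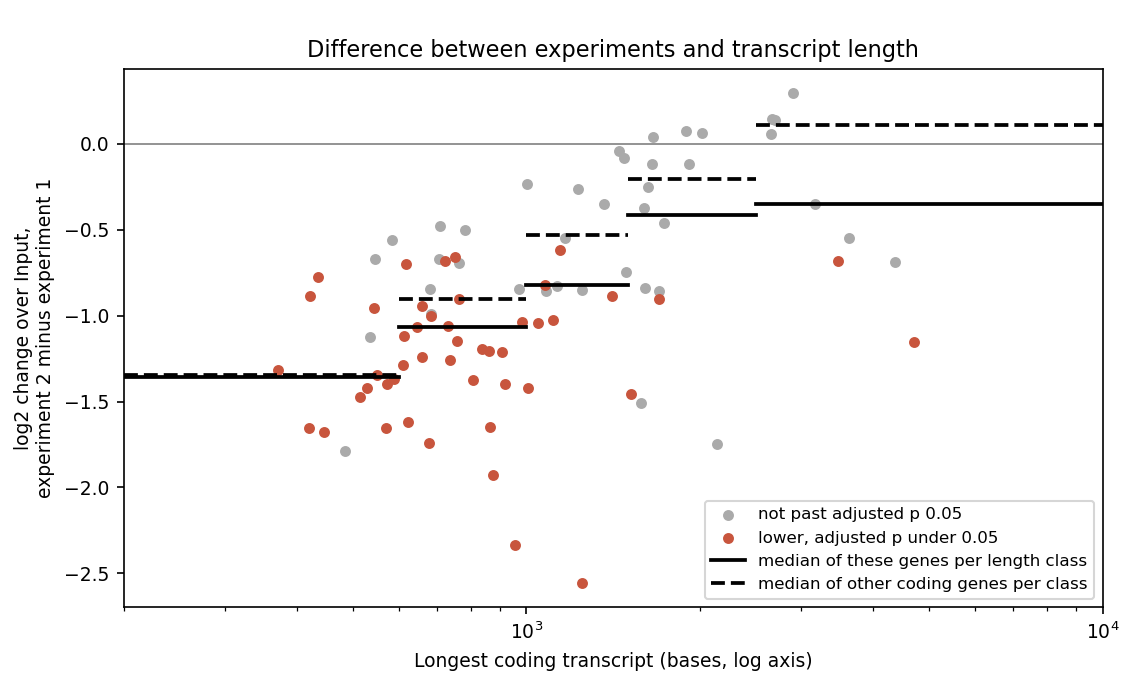
Change over Input in experiment 2 minus experiment 1 (log2) of the 87 tested genes against the length of the longest coding transcript on a log axis; solid and dashed lines are the medians of these genes and of other coding genes in the same length class, and the outer classes are open-ended. Below 600 bases both medians are near -1.35, and at 2500 bases or more they are -0.35 and 0.11.

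With coding genes only, 52 of 87 members were lower, where 6.88% of the coding genes were. After each library's trend on merged exon length was also removed, 17 members (19.5%) were lower, where 1% of the coding genes were. The member median was then -0.28. Merged exons can be longer than the longest coding transcript used above, as in Ndufaf2 with 2978 and 678 bases. A trend on the longest coding transcript itself was not removed. All 17 were among the 47. They comprised 7 supernumerary and 1 core subunit and 1 assembly factor of complex I, 1 gene of complex III, 2 of complex IV and 5 of Fo and stalk. Atp5j2 (-2.18), Ndufa13 (-1.82), Ndufb7 (-1.59) and Ndufaf2 (-1.55) led them. The count of members called thus fell from 52 to 17 with the trend removed. The Lhx1os recovery and the glial, neural progenitor and motor neuron markers given above also differed between the experiments, and their part in this result was not tested.

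Genes outside the list showed where the pattern extended. Cytosolic ribosomal protein genes, also short, had median ratios to their own Input of 0.46, 0.33 and 0.36 in experiment 1 and -0.60, -0.55 and -0.53 in experiment 2, in the order LacZ, ODD and EVEN, and 58 of 79 tested were lower in the change between experiments. Of the mitochondrial ribosomal protein genes 28 of 77 were lower. Of the 13 subunit mRNAs encoded by mitochondrial DNA, 10 were tested and 7 were lower, and their summed level was 4870 and 6810 CPM in Input, against 5592 and 2278 (LacZ), 4686 and 2043 (ODD) and 5068 and 2558 (EVEN). mt-Cytb, the catalytic cytochrome of complex III, changed by -1.84 (SE 0.177) and mt-Nd1, the complex I subunit next to the ubiquinone site, by -2.46 (SE 0.288). The sum was carried by mt-Co1, the catalytic subunit of complex IV, with 2683 CPM in Input experiment 1. The median ratios of the mitochondrially encoded genes to Input were -0.25, -0.46 and -0.34 in LacZ, ODD and EVEN of experiment 1. The genes mt-Nd1 and mt-Cytb were below Input in all 6 pull-downs. The change of sign was thus not seen in these medians or in these 2 genes. In the summed level it was seen in LacZ and EVEN, at log2 ratios of 0.20 and 0.06 in experiment 1, but not in ODD, at -0.06.

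Other genes of the pathway were counted in the same way. Of the genes for assembly outside the symbol pattern, 1 of 9 for complex I, 2 of 10 for complexes II and III, and 2 of 19 tested for complex IV were lower in the change between experiments, with medians of -0.29, -0.46 and -0.52. The median change was 0.02 over 13 citric acid cycle genes and -0.09 over 18 glycolysis genes, of which 1 was lower and 1 higher. Cycs, the mobile electron carrier cytochrome c, stood at 34.1 and 68.2 CPM in Input, against 43.6 and 25.8 (LacZ), 35.7 and 27.7 (ODD) and 39 and 30 (EVEN), and its change was -1.50 (SE 0.183, adjusted p = 0.00402). Cyc1, cytochrome c1 of complex III, changed by -0.48 (SE 0.234) and did not pass. Among 10 regulators of these genes, Polrmt, the mitochondrial RNA polymerase, was higher by 0.65 (SE 0.158), and Nrf1 (0.06), Gabpa (0.08), Yy1 (-0.05) and Tfam (-0.01) did not pass.

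Some members share sequence with other genes, which bears on how reads were assigned. Exons of 32 members overlap another annotated gene, 29 of them on the opposite strand and 5 on the same strand. The labels do not state whether reads were counted by strand. The largest overlap was that of Ndufaf2 with an opposite-strand noncoding RNA that had no Input count, over 65.6% of its merged exons. Uqcrc2, Ndufb6 and Ndufa13 overlap an opposite-strand gene over 19.7%, 39% and 30%, and Ndufb9 overlaps a same-strand gene over 19.5%. Reads over the 243 bases shared by the 2 Atp5o records may have been left out as ambiguous. Copies at 95% identity or more over at least 50% of the coding transcript were found for 7 members, and all except 1 copy of Atp5l, Gm5426, are processed pseudogenes. The most counted of these 19 copies, a copy of Atp5h, had a count equal to 0.623% of that of Atp5h.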

How the data were processed

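Library preparation used a stranded total RNA kit that depletes ribosomal RNA, per the labels' protocols. The submitters' processing notes name cutadapt 3.2, Bowtie2 2.4.2, Picard and HTSeq 0.13.5 and the build GRCm38, without saying whether reads were counted by strand. The authors deposited whole-number counts per Ensembl gene and FPKM values, with a gene length. The deposited FPKM equalled count divided by length and column total (largest relative difference 6.66e-14). Of 55471 identifiers, 55230 were found in GENCODE M21, and for 99.1% of these the deposited length equalled the merged exons, as it did for all 94 members, so coordinates and lengths came from that release. Columns matched to no library numbered 0.

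Counts were tested with edgeR 4.0.16 (quasi-likelihood, all 8 libraries, group term, TMM, default filter by group, 16524 genes) in R 4.3.3, two-sided, with Benjamini-Hochberg adjustment over all genes tested and a threshold of 0.05. Pull-down ratios within an experiment used log2(CPM + 0.5). The replicate number is a batch in the labels and the design gives 2 independent experiments, so it pairs libraries. Deviations of same-numbered libraries correlated with r from 0.517 to 0.719, and replicates were no duplicates (chi-square per degree of freedom 31.5 to 61.5).

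Alternatives were DESeq2 1.42.0, RLE factors, total library size, other count filters, the replicate block alone or with a length or GC trend removed (spline of 5 degrees of freedom), limma 3.58.1 on log2(FPKM + 1), only the groups compared, and leaving out each library. Every length trend was taken on the length of the merged exons. On simulated counts (16247 and 16221 genes, 200 changed), all pull-downs against Input recovered 37.5% of genes changed by a log2 of 1 and 100% of those changed by 2. The changed genes were drawn from those with a mean fitted count above 200. The spread followed the trend over genes, and libraries of an experiment did not deviate together as they do here. These rates may therefore be too high for the real libraries. Fits on coding genes only and a pair of comparisons between experiments were added after the data were seen. The members and lists were chosen with earlier results of these data known. Named genes were up to 10 members called with the largest change in a direction shared by both experiments, 3 of smallest p where none was called, extremes of level and change per class, isoform groups and complex II. For lists outside the members, counts and examples are given. Counts are reads without molecular identifiers, so floors (3 counts) cover counting error only.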

Additional observations from a re-analysis of the deposited data

Results flagged for a closer look

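The change over Input had opposite signs in the 2 experiments for most classes, with all 3 pull-downs of experiment 1 above their Input and all 3 of experiment 2 below theirs. For summed levels this difference was not tested. As log2, experiment 2 minus experiment 1, it was -0.64 for all members and -0.81 without Atp5a1 and Atp5b. By class it was -0.84 for complex I with its assembly factors, -1.07 for the supernumerary subunits, -0.45 for the assembly factors, -0.57 for complex III, -0.97 for complex IV, -0.44 for complex V, -1.01 for Fo and stalk and -0.39 for Atp5s alone.

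For single genes, with the limits on Input given above, the difference itself was tested with edgeR, and the 10 largest among those that passed were Ndufa13 (-2.55), Atp5j2 (-2.34), Ndufa5 (-1.93), Ndufaf2 (-1.74), Uqcr11 (-1.68), Cox6a1 (-1.65), Ndufa1 (-1.65), Cox5b (-1.65), Ndufb7 (-1.62) and Ndufa3 (-1.48). With the trend on merged exon length removed among coding genes, Ndufa1 stood at 0.09 (adjusted p = 0.879 by edgeR). Uqcr11 (-0.36, adjusted p = 0.4), Cox6a1 (-0.42, 0.185) and Ndufa3 (-0.58, 0.0905) did not pass either. Ndufa13, Atp5j2, Ndufb7, Ndufaf2, Cox5b and Ndufa5 still passed.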

How the results depend on the processing

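Counts of members called are given here as higher then lower, for LacZ, ODD, EVEN and all pull-downs against Input in that order where 4 pairs stand. They were 0 and 0 in the single pull-downs and 0 and 1 in all pull-downs as reported. DESeq2 gave 0 and 1, 1 and 1, 0 and 1, and 0 and 1. Over all 28192 genes it gave 1383 and 194, 1333 and 190, 1198 and 184, and 1744 and 584. Without a filter on low counts the member counts were 0 and 1, 3 and 3, 2 and 2, and 2 and 5. Over all 28192 genes they were 1797 and 321, 1788 and 276, 1639 and 221, and 2101 and 797. In that setting 1 member was higher in ODD against LacZ, beside 60 of all genes. In the mean of both Lhx1os probe sets against that control 1 member was higher, beside 57. With the replicate block, which pairs the libraries of an experiment, the member counts were 0 and 1, 2 and 1, 0 and 1, and 1 and 4. Over all 16524 genes they were 2092 and 1157, 2086 and 1083, 2123 and 1059, and 2648 and 2171. With the block and a GC trend removed the member counts were 0 and 12, 1 and 12, 0 and 12, and 0 and 23. Over all 16508 genes they were 1679 and 3356, 1685 and 3393, 1597 and 3186, and 2024 and 4814. With the block and a length trend removed the member counts were 0 and 56, 1 and 49, 0 and 45, and 1 and 62. Over all 16524 genes they were 1994 and 4510, 2031 and 4575, 2066 and 4361, and 2393 and 5920. In coding genes alone this last setting gave 1 and 5, 5 and 6, 5 and 5, and 6 and 12 members. Over all 13455 coding genes it gave 529 and 655, 669 and 881, 865 and 1124, and 1233 and 1919. Coding genes without block or trend gave 0 and 0 for all pull-downs, where 0 genes were called in all. The cause of these differences was not tested. Leaving out single libraries gave 0 to 1 lower in all pull-downs.

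For experiment 2 against experiment 1, reported as 1 and 2, DESeq2 gave 0 and 14, RLE factors 1 and 7, total library size 1 and 3, no filter 1 and 17, at least 50 counts 1 and 1, and limma 0 and 1. In the same order, all genes gave 2044 and 2064 of 28192, 2413 and 2192 of 16524, and 2545 and 1973 of 16524. The last 3 settings gave 2495 and 2315 of 28192, 2176 and 1790 of 13320, and 1988 and 1686 of 16553. Coding genes alone gave 2312 and 1917 of 13455 genes, 1 and 3 of them members. The length trend removed gave 2449 and 3153 of 16524 genes, 2 and 25 of them members. In coding genes that trend removed gave 2425 and 2751, 6 and 10 of them members. The GC trend removed gave 2209 and 2523 of 16508 genes, 1 and 14 of them members. Leaving out a library gave 0 higher and 0 to 60 lower. In the pull-downs alone, reported as 0 and 62, coding genes gave 1 and 62, the length trend removed in them 8 and 37, and leaving out a library 0 to 1 higher and 50 to 69 lower. The change between experiments, reported as 0 and 47, had 17 lower with the length trend removed in coding genes, and 36 to 59 lower without 1 pull-down. It could not be fitted without an Input library. Over all 13455 coding genes, the pull-downs alone gave 3203 and 3257, and 2790 and 3277 with the length trend removed. The change between experiments gave 135 of them lower with the length trend removed.

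Some small differences between all pull-downs and Input changed sign. With the block and length trend removed, Atp5b was at -0.0542, Sdhb at -0.28, Uqcrh at -0.021 and Cox7b at -0.42. Cox7b was at -0.33 with the block and GC trend removed and ran from -0.0247 without Input experiment 1 to 0.369 without Input experiment 2. Atp5s, reported at -0.05, was at 0.0253 in coding genes, 0.057 in them with block and length trend, 0.0004 with at least 50 counts, and ran from -0.228 without LacZ experiment 1 to 0.11 as single libraries were left out. The change of Ndufa1 between experiments was 0.0852 in coding genes with the length trend removed. The cause was not tested. Per kilobase of the longest coding transcript, class medians in Input were 46.2 for the core, 56.8 for the supernumerary subunits and 10.5 for the assembly factors of complex I, 60.9 for complex II, 102 for III, 115 for IV, 130.0 for F1, 104 for Fo and stalk and 5.35 for Atp5s. In simulated counts, LacZ against Input, with 2 libraries a group, recovered 5% of genes changed by a log2 of 1 and 94% of those changed by 2, so a count of 0 there says little about smaller changes. At a log2 of 2, 17 of the 205 calls were false. The limits of the simulation given above hold here too.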

Other observations

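Ndufb8 and Ndufv3 shared their highest library, ODD experiment 1, with 389 and 220 CPM, and Ndufs1 reached 388 CPM there as well. For Ndufs1 the second highest library was EVEN experiment 2 with 290 CPM. These are values of single libraries, and no test compared them.

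Among the longest coding transcripts of the members, Atp5g1, with 4715 bases, had a change between experiments of -1.16, and Ndufb2, with 4371 bases, had -0.69 and did not pass. Their difference was not tested. Both have coding sequences of under 1000 bases, and the median coding sequence of the 87 members was 432 bases. The 9 members with a transcript of 2500 bases or more had a median change of -0.35, and 2 of them were called lower. Atp5a1 (0.15) and Sdha (0.29), also of that class, changed in the other direction.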
